A study of Neurospora crassa with 42 samples.

Results

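Transcript levels of the filamentous fungus Neurospora crassa were compared between a strain that expresses the regulator gene clr-2 without an inducer and wild type, both left without carbon for 4 h. The comparison holds 6 of the 42 RNA sequencing libraries of the study: all 3 labelled Pccg1-clr-2 at 4 h of starvation and all 3 labelled wild type at 4 h of starvation. They were chosen by these labels alone, and none was left out. The wild type is FGSC 2489. The genotype of the other strain is given as Pccg1-clr-2 with a deletion of clr-2, so clr-2 was read from the promoter of the ccg-1 gene in a strain that has no clr-2 at its own locus. The study as a whole holds 14 groups of 3 biological replicates, 6 of them sampled at 4 h. Mycelia grew from conidia for 16 h at 25 °C in constant light in Vogel's minimal medium with 2% sucrose, were washed, and stood for 4 h in the same medium with no carbon source. Wild type moved to 2% Avicel, a microcrystalline cellulose, and a clr-2 deletion strain on Avicel, each with 3 libraries of 4 h, served as points of reference.

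CLR-2 is a zinc cluster transcription factor that Neurospora needs to express its cellulases. In wild type the clr-2 gene is itself induced on cellulose, and the factor CLR-1 takes part in that step, while clr-3 is known as a brake on it. The promoter of ccg-1, a gene that is active when glucose is scarce and that follows the circadian clock, is used to express a gene without that signal. The level and place of expression then need not be those of the native gene. Whether the strain is 1 transformant or several is not stated by the labels. The transgene and any other difference of the transformed strain from wild type cannot be told apart here.

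The unit is FPKM, in which fragment numbers are divided by transcript length and by the size of the library, so levels may be compared between genes per length. A gene was called higher or lower at an adjusted p under 0.05 (limma, Benjamini-Hochberg over 8270 genes) and an absolute change of at least 1 on the log2(FPKM + 1) scale, which understates the change of genes with low values. Values of a gene are given in the order of replicates 1, 2 and 3, and ± after a log2 fold change is its standard error. The depth implied by the deposited bounds was 41.2, 14.6 and 15.2 M (mega) fragments in Pccg1-clr-2 and 17.2, 39.3 and 40.0 M in starved wild type. Pccg1-clr-2 replicate 1 and wild type replicate 2 stood apart from their group. The SD of the log2 ratio between replicates was 0.522 and 0.487 for pairs with Pccg1-clr-2 replicate 1 and 0.235 for the other pair, and it was 0.667 and 0.617 for pairs with wild type replicate 2 and 0.444 for the other pair. In all, 228 genes were called higher and 639 lower in Pccg1-clr-2, which is 2.76% and 7.73% of the genes tested, and 834 of these 867 had no overlap between the 3 libraries of either group. The median of all log2 fold changes was -0.29. After rescaling each library by the median ratio of its genes that median was -0.01 and the counts were 333 higher and 286 lower, so the excess of lower calls depends on the scaling.

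The manipulated gene was checked first. The clr-2 gene (NCU08042, IV:4001190-4004643, build NC12) was at 207, 363 and 326 FPKM in Pccg1-clr-2 and at 1.62, 3.65 and 1.15 FPKM in starved wild type. Wild type on Avicel held 182, 172 and 192 FPKM, so the 3 Pccg1-clr-2 libraries lay above all 3 Avicel libraries and the lowest of them, replicate 1, was the closest. The promoter's own gene, ccg-1 (NCU03753, V:2302672-2303443), was among the most abundant transcripts, at 33842, 32706 and 45192 FPKM in Pccg1-clr-2 and 36407, 50496 and 60184 FPKM in starved wild type. The ranges of ccg-1 overlapped and it was not called (log2 fold change -0.38 ± 0.37, adjusted p = 0.456). The clr-2 transcript under this promoter stood far below the transcript of ccg-1 in the same libraries.

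**Figure D1:**
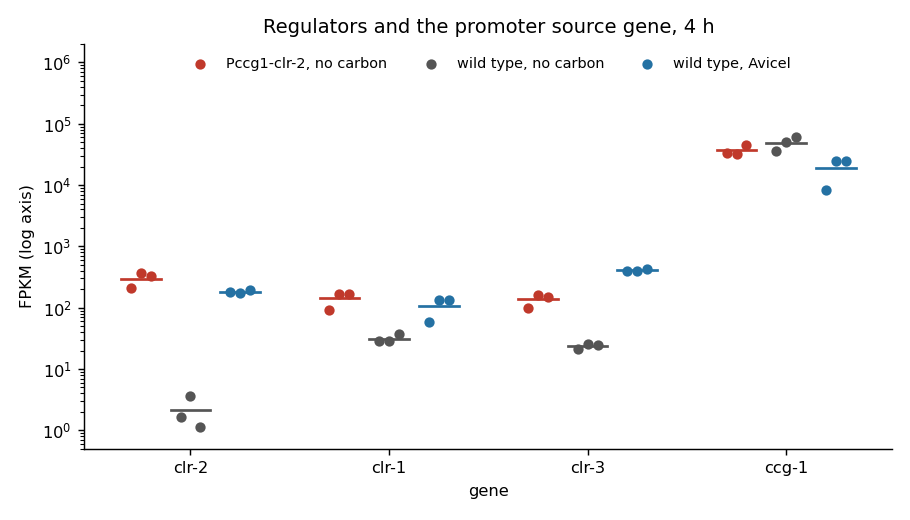
FPKM on a log axis of clr-2, clr-1, clr-3 and ccg-1 in Pccg1-clr-2 without carbon, wild type without carbon and wild type on Avicel; points are the 3 libraries of a group and bars their mean. The clr-2 points of Pccg1-clr-2 run from 207 to 363 FPKM, and those of ccg-1 overlap between the starved groups.

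Of 13 listed regulators of plant cell wall degradation, 4 were called higher and none lower, against 2.76% and 7.73% of all genes, with a median log2 fold change of 0.20. The clr-1 gene (NCU07705, IV:2149157-2154036) was at 92.2, 167 and 166 FPKM against 28.5, 28.9 and 36.7 FPKM in starved wild type, with no overlap (log2 fold change 2.10 ± 0.28, adjusted p = 5.56e-05). Its range in Pccg1-clr-2 overlapped that of wild type on Avicel, at 58.7, 135 and 131 FPKM. The gene clr-3 (NCU05846, VII:4035638-4038540; named from background knowledge) was at 98.8, 164 and 147 FPKM against 21.5, 25.1 and 24.3 FPKM (log2 fold change 2.45 ± 0.20, adjusted p = 2.40e-07). All 3 Pccg1-clr-2 libraries stood above starved wild type and below wild type on Avicel, at 390.4, 399 and 435 FPKM (log2 fold change -1.60 ± 0.20, adjusted p = 4.24e-05 against Avicel). NCU04295 and NCU05414 also rose, by 1.28 ± 0.24 and 1.20 ± 0.27 on the log2 scale. Other regulators were not called: xlr-1, the xylanase regulator, was at 56.5, 80.1 and 72.5 FPKM against 55.7, 53.8 and 58.9 FPKM, and vib-1, a regulator of heterokaryon incompatibility and of cellulase genes, at 42.3, 72.6 and 69.8 against 28.4, 54.9 and 35.6 FPKM. Without the pair of libraries that stood apart vib-1 was called higher, by 1.14. Both xlr-1 and vib-1 were called lower in Pccg1-clr-2 than in wild type on Avicel, by -1.17 ± 0.17 and -1.42 ± 0.24 on the log2 scale. The repressor gene cre-1 and the regulator gene col-26 were at 24.3, 16.8 and 16.01 FPKM and 39.3, 37.3 and 41.1 FPKM in Pccg1-clr-2, and both overlapped starved wild type.

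Most listed genes for enzymes that cut plant cell walls were raised. Of 56 listed genes for cellulases, lytic polysaccharide monooxygenases, xylanases and other hemicellulases, and pectinases, 41 were called higher and none lower, against 2.76% and 7.73% of all genes. Each of the 41 had no overlap between the groups, which held for 834 of the 867 genes called among all tested. Added up, the 56 genes held 11.8, 21.1 and 18.7% of the summed FPKM of the 3 Pccg1-clr-2 libraries and 0.164, 0.148 and 0.201% of starved wild type. The same genes held 19.5, 14.6 and 17.2% in wild type on Avicel and 2.91, 1.70 and 1.75% in the clr-2 deletion strain on Avicel. The share in Pccg1-clr-2 without carbon therefore overlapped that of wild type on cellulose, and replicate 1 was the lowest. That library was also the lowest of the 3 in 38 of the 41 genes, and it was the lowest in clr-2. It stood apart from its group over all genes, and the share of all genes in which it was lowest is not given. A link of these genes to the level of clr-2 was not tested. Both strains were sampled as mycelium, and a lower level of a transcript cannot be told apart from fewer hyphae that carry it. Markers of conidia and aerial hyphae were present in both groups. None of the 7 listed was called between them with all libraries, and none was at 0. Without Pccg1-clr-2 replicate 1 the hydrophobin gene eas was called lower, by -1.44 on the log2 scale (limma, adjusted p = 0.0191), and also without the pair of libraries that stood apart (-1.61). The part of these markers in the differences between the strains was not tested. The summed level of the 7 markers was 4010 to 11445 FPKM in Pccg1-clr-2 and 7949.8 to 15611 in starved wild type.

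**Figure D2:**
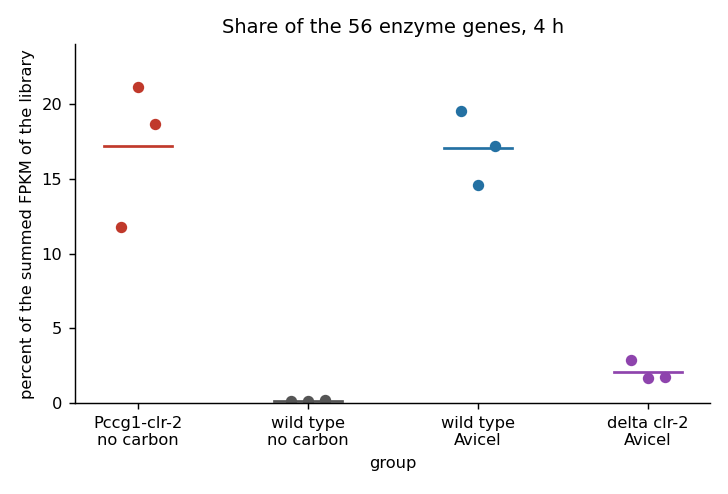
Percent of the summed FPKM of a library held by the 56 listed enzyme genes; points are libraries and bars the mean of 3. The starved wild type libraries lie between 0.148 and 0.201% and the starved Pccg1-clr-2 libraries between 11.8 and 21.1%.

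Among 13 cellulase and beta-glucosidase genes, 10 were called higher and the median log2 fold change was 4.18. The cellobiohydrolase gene cbh-1 (NCU07340, IV:4311049-4314145), whose product releases cellobiose from the ends of cellulose chains, was at 8085, 14644 and 13164 FPKM against 18.8, 16.8 and 20.6 FPKM in wild type without carbon (log2 fold change 9.20 ± 0.26, adjusted p = 5.29e-13). The wild type libraries were close to each other, far below all 3 of Pccg1-clr-2. A further cellobiohydrolase gene, gh6-2 (NCU09680, V:858215-859731), was at 5573, 9351 and 7758 FPKM against 16.2, 17.2 and 22.4 FPKM (log2 fold change 8.57 ± 0.29, adjusted p = 3.63e-12). The endoglucanase gene gh5-1 (NCU00762, I:7271711-7273785), which cuts within the chain, was at 1524, 2646 and 2586 FPKM against 1.53, 1.63 and 2.64 FPKM (log2 fold change 9.56 ± 0.33, adjusted p = 4.31e-12). The endoglucanase genes gh45-1 and gh7-1 rose by 7.79 ± 0.43 and 7.02 ± 0.23, gh6-3 by 5.54 ± 0.28, gh7-2 by 3.08 ± 0.28 and gh7-4 by 1.84 ± 0.19 on the log2 scale. The beta-glucosidases, which split cellobiose into glucose, did not move as a group. The gene gh1-1 was at 443, 719 and 658 FPKM against 26.9, 34.5 and 34.7 FPKM and gh3-4 at 86.6, 286 and 306 against 10.99, 12.3 and 17.5 FPKM, both called higher. In contrast gh3-3 (NCU08755, III:5254966-5258478) was at 43.2, 38.9 and 41.99 FPKM against 75.3, 41.7 and 74.2 FPKM and gh3-6 (NCU07487, I:448859-451692) at 1.20, 1.60 and 1.39 against 1.01, 1.11 and 1.15 FPKM, and neither was called (adjusted p = 0.335 and 0.564).

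Lytic polysaccharide monooxygenases break crystalline cellulose by oxidation and take electrons from cellobiose dehydrogenase. Of 14 listed genes of these families, 11 were called higher, with a median log2 fold change of 5.67. The monooxygenase gene gh61-5 (NCU08760, III:5242495-5244087) was at 5897, 11847 and 9679 FPKM against 4.88, 4.98 and 5.68 FPKM (log2 fold change 10.47 ± 0.24, adjusted p = 7.81e-14). The gene gh61-4 (NCU01050, V:2769232-2770004) was at 991, 1487 and 1398 FPKM against 0.0822, 0.552 and 0.486 FPKM (log2 fold change 9.87 ± 0.28, adjusted p = 5.29e-13). For gh61-1 the values were 3378, 5298 and 5202 against 8.67, 7.92 and 8.69 FPKM, and NCU07898, gh61-7 and gh61-6 rose by 9.23 ± 0.41, 8.36 ± 0.26 and 7.17 ± 0.35 on the log2 scale. The cellobiose dehydrogenase gene cdh-1 (NCU00206, III:3004156-3008108) was at 1021, 2727 and 2296 FPKM against 3.52, 2.56 and 3.39 FPKM (log2 fold change 8.81 ± 0.32, adjusted p = 9.83e-12). Its relative cdh-2 changed far less, from 4.14, 2.25 and 6.04 FPKM in wild type to 7.35, 10.8 and 10.8 FPKM (log2 fold change 1.11 ± 0.26, adjusted p = 0.00478). The family members gh61-8, gh61-9 and gh61-10 were not called, with levels in Pccg1-clr-2 of 1.23, 1.23 and 1.95, then 16.2, 18.9 and 18.2, and 1.76, 2.74 and 3.71 FPKM.

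**Figure D3:**
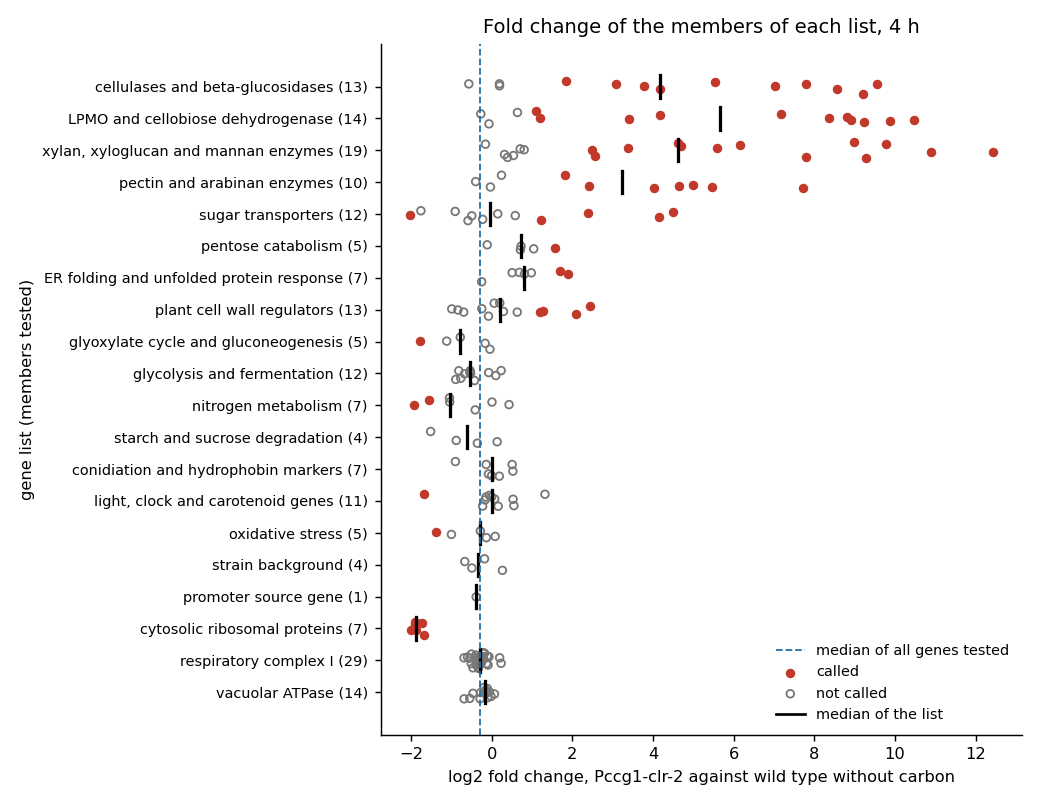
Log2 fold change of Pccg1-clr-2 against wild type without carbon for the tested members of 20 gene lists; filled points were called, open points were not, black bars are list medians and the dashed line is the median of all genes. The called members of the 4 enzyme lists lie between 1.11 and 12.4, and the 7 listed ribosomal protein genes between -2.01 and -1.69.

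The gain reached enzymes for substrates other than cellulose. Of 19 genes listed for xylan, xyloglucan and mannan, 13 were called higher, with a median log2 fold change of 4.63. The endoxylanase gene gh10-1 (NCU05924, VI:3456057-3457175) showed the largest increase of all genes tested, at 7324, 13888 and 13282 FPKM against 0.696, 1.04 and 1.30 FPKM (log2 fold change 12.44 ± 0.33, adjusted p = 2.92e-13). The xylanase gene gh11-2 (NCU07225, V:6198659-6199980) reached the highest level of the enzyme genes, at 11863, 21143 and 18829.7 FPKM against 22.7, 32.7 and 43.98 FPKM (log2 fold change 8.99 ± 0.30, adjusted p = 2.43e-12). The xylanase gene gh11-1 (NCU02855, I:8902056-8903806) was at 1658, 4166 and 3981 FPKM against 1.61, 4.44 and 1.88 FPKM (log2 fold change 9.77 ± 0.39, adjusted p = 2.24e-11). Among genes with no symbol in the reference, NCU08785 (III:5130163-5131035) was at 8963, 11755 and 11154 against 5.84, 3.93 and 4.14 FPKM and NCU04870 (IV:560167-561105) at 1001, 1510.1 and 1551 against 1.20, 0.695 and 1.58 FPKM. The mannosidase gene gh2-1 rose by 2.49 ± 0.18 and the xylanase gene gh10-2 by 3.38 ± 0.58 on the log2 scale. The genes gh3-7 and gh3-8 were not called, at 2.29, 3.64 and 2.96 FPKM and 2.13, 3.48 and 4.30 FPKM in Pccg1-clr-2.

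Of 10 genes listed for pectin and arabinan, 7 were called higher, with a median log2 fold change of 3.22. The largest change was that of NCU08176 (VII:3641359-3642228), at 661, 1281 and 1128 FPKM against 3.46, 4.39 and 3.28 FPKM (log2 fold change 7.72 ± 0.29, adjusted p = 1.19e-11). The gene asd-1 (NCU05598, VI:1378109-1380263), first known from ascus development and placed here with pectin enzymes, was at 113, 369 and 351 FPKM against 3.89, 4.41 and 5.69 FPKM (log2 fold change 5.45 ± 0.33, adjusted p = 6.19e-09). NCU00972, NCU10045 and NCU09976 rose by 4.99 ± 0.25, 4.64 ± 0.26 and 4.02 ± 0.41 on the log2 scale. The polygalacturonase gene gh28-2, whose product cuts the pectin backbone, was already present in starved wild type at 112, 53.9 and 109 FPKM and stood at 213, 398 and 345 FPKM in Pccg1-clr-2 (log2 fold change 1.81 ± 0.34, adjusted p = 0.00109). The gene gh28-1 was at 3.29, 1.94 and 4.39 against 3.52, 3.16 and 2.84 FPKM and was not called.

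Of 12 listed sugar transporters, 4 were called higher and 1 lower, against 2.76% and 7.73% of all genes, with a median of -0.03. The cellodextrin transporter gene cdt-1 (NCU00801, I:7121829-7125021) was at 1157, 930.4 and 963 FPKM against 29.3, 80.6 and 36.2 FPKM (log2 fold change 4.49 ± 0.37, adjusted p = 3.61e-07). For the cellodextrin transporter gene cdt-2 (NCU08114, I:318873-321079) the values were 530.4, 464 and 448 FPKM against 92.5, 84.4 and 94.6 FPKM (log2 fold change 2.39 ± 0.32, adjusted p = 6.08e-05). NCU06138 was at 172, 603 and 527 against 29.8, 9.65 and 29.2 FPKM (log2 fold change 4.15 ± 0.50, adjusted p = 2.15e-05), and NCU05853 changed by 1.22 ± 0.43, a call lost in 6 of 13 alternative fits, among them those without replicate 2 or 3 of Pccg1-clr-2 and without replicate 1 or 2 of wild type. NCU05627 was called lower (log2 fold change -2.03 ± 0.60, adjusted p = 0.0191), a call lost after rescaling and without any 1 of the same 4 libraries. Of 5 genes of pentose catabolism, NCU00891 alone was called higher, by 1.57 ± 0.43, a call lost without the pair of libraries that stood apart. The xylose reductase gene xr, the entry to pentose use, was at 10.5, 20.8 and 23.04 FPKM against 8.49, 9.97 and 11.6 FPKM and was not called (adjusted p = 0.354).

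Of 7 listed genes of folding in the endoplasmic reticulum and of the unfolded protein response, 2 were called higher and none lower, against 2.76% and 7.73% of all genes, with a median of 0.81 against -0.29 for all genes. The chaperone gene grp78 (NCU03982, VI:2329825-2332792) was at 1479.7, 1179.8 and 1068 FPKM against 303, 382 and 309.6 FPKM (log2 fold change 1.90 ± 0.22, adjusted p = 1.20e-05). NCU09223 was at 1065, 962 and 858 against 305, 285 and 302 FPKM (log2 fold change 1.69 ± 0.17, adjusted p = 2.71e-06). NCU00813 and NCU09485 fell just short of the fold required, at 0.98 ± 0.14 and 0.81 ± 0.13, and both were called after rescaling, NCU00813 also without replicate 2 or 3 of Pccg1-clr-2 or replicate 1 of wild type. Genes of the signalling step were not called, at 0.51 ± 0.25 for hac-1 (NCU01856), which codes for a transcription factor of the response, and -0.25 ± 0.20 for stk-14, the kinase gene also known as ire-1. NCU09265 was at 255, 302 and 272 FPKM against 170.4, 157 and 186 FPKM, with no overlap and a change of 0.69 ± 0.18 (adjusted p = 0.00951), under the fold required.

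Starved Pccg1-clr-2 was then set against wild type on cellulose, a comparison that shares the Pccg1-clr-2 libraries with the one above. Strain and carbon source both differ between these groups and cannot be told apart. Over all genes, 388 (4.69%) were higher and 426 (5.15%) lower in Pccg1-clr-2 without carbon than in wild type on Avicel (305 and 524 after rescaling). Avicel replicate 1, the shallowest library at 5.18 M fragments, stood apart from the others of its group. Of the 56 enzyme genes, 19 were higher and 17 lower than on Avicel and 20 were not called; without Avicel replicate 1 the counts were 21 and 15. In 17 of the 19 and in all 17 the libraries of the groups did not overlap, which held for 783 of the 814 genes called among all tested. The list median was -0.93 for cellulases, 0.33 for monooxygenases with cellobiose dehydrogenase, -0.15 for xylan, xyloglucan and mannan enzymes and 1.10 for pectin enzymes.

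Several genes exceeded their level on cellulose. The endoglucanase gene gh45-1 was at 1232, 2403 and 2315 FPKM in Pccg1-clr-2 and 177, 31.3 and 47.1 FPKM in wild type on Avicel (log2 fold change 4.87 ± 0.43, adjusted p = 1.72e-06). NCU08785 was at 1238, 438 and 606 FPKM on Avicel, below each of the Pccg1-clr-2 libraries (log2 fold change 3.93 ± 0.38, adjusted p = 4.94e-06). For NCU09775 the Avicel values were 34.7, 2.55 and 2.10 FPKM and those of Pccg1-clr-2 62.4, 108 and 97.3 FPKM (log2 fold change 3.59 ± 0.62, adjusted p = 8.61e-04). The xylanase genes gh11-1 and gh10-1 were higher than on Avicel by 3.16 ± 0.39 and 1.94 ± 0.33, the monooxygenase genes gh61-6 and gh61-5 by 2.34 ± 0.35 and 1.27 ± 0.24, and asd-1 by 2.35 ± 0.33 on the log2 scale. Of the 10 pectin genes, 6 were higher than on Avicel and none lower.

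The main cellobiohydrolases did not differ by call. On Avicel cbh-1 was at 20941, 11552 and 13466 FPKM, a range that holds 2 of the 3 Pccg1-clr-2 values (difference -0.35 ± 0.26, adjusted p = 0.335), and gh6-2 at 17216, 7436 and 9677 FPKM (difference -0.54 ± 0.29). The difference for gh11-2 was 0.00 ± 0.30 and for cdh-1 0.48 ± 0.32. A missed threshold does not show equal levels.

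Other genes stayed far below their level on cellulose. The beta-glucosidase gene gh3-6 was at 114, 121 and 161 FPKM on Avicel (log2 fold change -5.78 ± 0.24, adjusted p = 6.76e-10), gh3-3 at 384, 1553 and 1556 FPKM (log2 fold change -4.53 ± 0.43, adjusted p = 3.54e-06) and gh1-1 at 3686, 6212 and 7067 FPKM (log2 fold change -3.20 ± 0.34, adjusted p = 1.04e-05). The xylose reductase gene xr was at 594, 2991 and 2919.8 FPKM on Avicel (log2 fold change -6.57 ± 0.58, adjusted p = 1.65e-06). The transporter gene cdt-2 was at 4451, 10226 and 10784 FPKM (log2 fold change -4.04 ± 0.32, adjusted p = 4.89e-07). All of these libraries on Avicel were above all 3 Pccg1-clr-2 libraries. Among genes raised without carbon, gh61-3, gh10-2 and gh6-3 also stood below Avicel, by -3.33 ± 0.23, -3.23 ± 0.58 and -2.90 ± 0.28. In the clr-2 deletion strain on Avicel xr was at 2587, 752 and 836 FPKM and gh10-2 at 9134, 5334 and 5563 FPKM. Neither was called there against wild type on Avicel. The genes gh3-6, gh3-3, gh1-1, cdt-2, gh61-3 and gh6-3 were called lower in that strain. All 7 conidiation markers were higher in starved Pccg1-clr-2 than on Avicel, against 4.69% of all genes. The gene eas was higher by 1.67 ± 0.46 and con-10 by 2.93 ± 0.51, and acon-3 was not called without Avicel replicate 1. The part of these markers in the difference from Avicel was not tested.

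**Figure D4:**
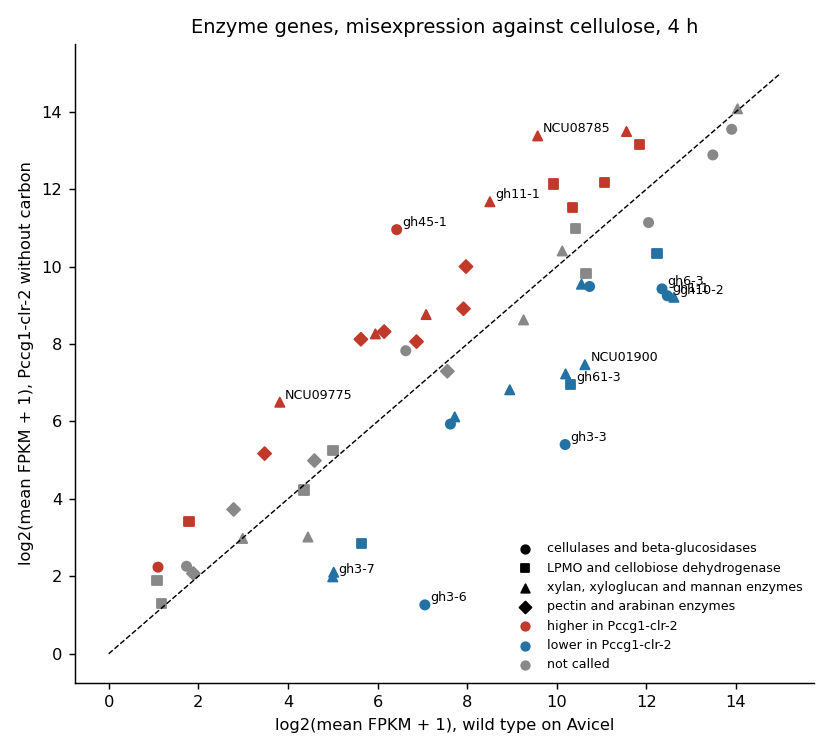
Log2(mean FPKM + 1) of the 56 enzyme genes in Pccg1-clr-2 without carbon against wild type on Avicel; each point is a gene with the mean of 3 libraries per axis, shapes are lists, colours the call between both groups and the dashed line marks equal means. The 17 genes called lower lie below the line, with gh3-6 farthest, and the 19 called higher lie above it, with gh45-1 farthest.

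Loss of the same gene was examined on Avicel, in libraries that share none with the starved comparison. In the clr-2 deletion strain 183 genes (2.21%) were lower and 350 (4.23%) higher than in wild type; after rescaling the counts were 276 and 67. Of the 228 genes higher in starved Pccg1-clr-2, 103 (45.2%) were lower without clr-2 on Avicel, and these 103 made up 56.3% of the 183. There were 4 genes higher in both, and 1 to 9 over the alternatives. In the reverse direction 78 genes were lower in starved Pccg1-clr-2 and higher without clr-2 on Avicel, 12.2% of the 639 and 22.3% of the 350. That overlap depends on the scaling, since it was 16 after rescaling, and it was 51 without replicate 3 of the deletion strain. Among the enzyme genes, 38 were lower without clr-2 on Avicel and 35 of these were higher in starved Pccg1-clr-2. The 3 that were not were gh3-3, gh3-6 and gh3-7, a set named after its values were seen. Replicate 1 of the clr-2 deletion strain had the mating type gene matA-1 at 0 FPKM where its replicates 2 and 3 were at 63.3 and 53.6; without that library 105 genes were shared. In the starved comparison matA-1 was present in all 6 libraries, at 33.1, 42.9 and 43.02 FPKM in Pccg1-clr-2 and 29.1, 28.5 and 41.4 FPKM in wild type.

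The 10 shared genes with the largest increase that were in no list rose by 6.23 to 10.05 on the log2 scale. NCU01076 (V:2840278-2840944) led them, at 1389.7, 2886 and 2731 FPKM against 0.68, 1.18 and 1.52 FPKM in starved wild type and 231, 77.1 and 106 FPKM on Avicel (log2 fold change 10.05 ± 0.41, adjusted p = 3.50e-11). Its neighbours NCU01075 and NCU01077, named after their values were seen, rose as well, by 3.23 ± 0.28 and 4.76 ± 0.30. NCU09582 (VII:932225-933187) was at 1713, 2082 and 2378 against 3.12, 3.44 and 4.35 FPKM and NCU07326 (IV:4359254-4361686) at 2013, 3382 and 3004 against 7.23, 8.58 and 6.51 FPKM. NCU08398, NCU00449, NCU05751, NCU07143 and NCU05159 rose by 8.03 ± 0.25, 7.58 ± 0.49, 7.45 ± 0.47, 6.51 ± 0.29 and 6.23 ± 0.28. The xylanase family gene gh10-3 (NCU04997, VI:4144717-4146414) was at 227, 321 and 339 FPKM against 0.618, 1.45 and 0.587 FPKM, and at 21.5, 16.1 and 15.7 FPKM on Avicel. NCU09774 (II:4271243-4272151), which lies next to NCU09775, was listed at 0, 0 and 0.0196 FPKM in starved wild type and at 158, 318 and 263 FPKM in Pccg1-clr-2. It was the single gene at or under 0.1 FPKM in all 3 wild type libraries and at 5 FPKM or more in all 3 others.

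A set of 26 genes called higher was also at least 2-fold above each of the other 15 libraries of 4 h, on the FPKM + 1 scale, in all 3 Pccg1-clr-2 libraries, a rule written after the data were seen. Of these, 3 were on the lists (gh45-1, gh11-1 and NCU08785). The set held mus-18, a DNA repair gene, at 93.7, 125 and 142 FPKM against 9.18, 32.2 and 36.5 FPKM in starved wild type, and its level on Avicel was 9.66, 16.6 and 16.6 FPKM. NCU05016 was at 76.9, 249 and 284 against 12.2, 10.1 and 17.7 FPKM, and neither it nor mus-18 was called in the clr-2 deletion strain (differences -0.03 ± 0.36 and -0.39 ± 0.37).

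The list of cytosolic ribosomal proteins holds the 7 genes with a crp symbol in the reference and need not cover the whole class. All 7 were called lower, against 7.73% of all genes, with a median of -1.87 against -0.29, and 4 of the 7 were called after rescaling. All 7 were also lower than in wild type on Avicel, against 5.15% of all genes, with a median of -1.48. The gene crp-2 (NCU07830, III:1000681-1002117) was at 110.3, 64.8 and 71.1 FPKM against 418, 209.8 and 273 FPKM (log2 fold change -1.84 ± 0.36, adjusted p = 0.0016), and crp-7 at 196, 96.1 and 125 against 821, 334 and 421 FPKM. In each of the 7 genes wild type replicate 1 was the highest of its group, and the share of all genes in which it was highest is not given. The groups did not overlap in any of the 7, as in 834 of the 867 called genes. Leaving out any 1 library left 6 or 7 of them called. For comparison, none of 29 genes of respiratory complex I and none of 14 of the vacuolar ATPase was called, with medians of -0.28 and -0.16.

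Of 7 genes of nitrogen metabolism, 2 were called lower and none higher, against 7.73% and 2.76% of all genes. The lower count was 1 without Pccg1-clr-2 replicate 2, without wild type replicate 1 or after rescaling, and 3 without wild type replicate 2, where nit-3, the nitrate reductase gene, was added. The glutamine synthetase gene gln-1 (NCU06724, V:4393869-4397472) was at 67.2, 69.4 and 61.5 FPKM against 239.9, 274 and 114 FPKM (log2 fold change -1.55 ± 0.24, adjusted p = 2.56e-04). NCU01966 was at 137, 56.01 and 69.5 against 508, 233 and 248 FPKM (log2 fold change -1.91 ± 0.51, adjusted p = 0.0107), and its call was the one lost where the count was 1. Of 5 genes of the glyoxylate cycle and gluconeogenesis, the isocitrate lyase gene acu-3 (NCU04230, V:5289251-5292173) was called lower, at 73.4, 37.5 and 28.4 FPKM against 255, 115 and 112 FPKM (log2 fold change -1.77 ± 0.38, adjusted p = 0.00254). Without Pccg1-clr-2 replicate 1 the gluconeogenesis and acetate use genes fbp-1 and acu-5 were called lower as well, by -1.71 and -1.02 on the log2 scale, which makes 3 of 5. The catalase gene cat-3 was at 10.01, 8.76 and 9.69 against 25.5, 22.5 and 31.1 FPKM (log2 fold change -1.37 ± 0.32, adjusted p = 0.00432), the 1 call among 5 genes of oxidative stress with all libraries. Without Pccg1-clr-2 replicate 1, wild type replicate 1 or wild type replicate 2 the catalase gene cat-2 was called lower too, by -1.08 to -1.33. None of 12 glycolysis and fermentation genes was called, with a median of -0.53, and none of 4 genes of starch and sucrose degradation with all libraries; gh13-6 of the latter was called lower without wild type replicate 1 or 3 (-1.01 and -1.07). Wild type replicate 2 stood high in several of these, for example 1915 FPKM of acu-6, a gluconeogenesis gene, against 181 and 91.9 in the other wild type libraries. Of 11 light, clock and carotenoid genes only ccg-8 was called with all libraries (log2 fold change -1.67 ± 0.48, adjusted p = 0.0159), and that call was lost after rescaling and without Pccg1-clr-2 replicate 1 or wild type replicate 2. The carotenoid gene al-1 was called higher without Pccg1-clr-2 replicate 2 or wild type replicate 3 (1.78 and 1.98), and al-2 without the latter (1.27).

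The largest decreases fell outside the lists and mostly on genes with no symbol. The 15 largest ran from -4.76 ± 0.61 for NCU09968 to -2.96 ± 0.34 for NCU09176 on the log2 scale. NCU09968 and NCU09969 overlap on the chromosome (VI:309546-315476 and VI:314113-320071), and both were listed at 0 in all 3 Pccg1-clr-2 libraries. In starved wild type they were at 27.04, 26.2 and 25.3 FPKM and 7.54, 7.90 and 9.37 FPKM. In the clr-2 deletion strain on Avicel they were at 0.0124, 0 and 0 and 0, 0 and 0 FPKM, while wild type on Avicel held 15.6, 21.7 and 21.5 FPKM of NCU09968. Both were listed at 0 in the 3 clr-3 deletion libraries too, and in 2 of the 3 of clr-1. No source states whether the libraries keep strand, which leaves the values of this overlapping pair uncertain. NCU07751 (V:425598-426105) was at 0 in Pccg1-clr-2 and at 5.27, 9.42 and 19.5 FPKM in starved wild type, and here the clr-2 deletion strain held 13.98, 19.7 and 23.2 FPKM. NCU03370 (II:939744-941575) was at 57.6, 48.6 and 38.3 FPKM against 333, 578 and 541 FPKM (log2 fold change -3.28 ± 0.22, adjusted p = 2.73e-08). The neighbours NCU09273 and NCU09274 (VII:118457-120636 and VII:114609-116893) fell by 3.13 and 4.23 on the log2 scale; NCU09274 was at 12.6, 2.78 and 2.15 FPKM against 267, 33.1 and 116 FPKM.

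Of the 15 largest decreases, 5 lay on 1 stretch of chromosome III. The stretch was drawn after the values were seen, so what follows is a description with no test. In all, 22 genes called lower were at least 2-fold below each of the other 15 libraries of 4 h in every Pccg1-clr-2 library, and 12 of these lay within III:205022-541754, which is 337 kb long. The ends of the stretch are those of the outermost of these 12 genes. Of 80 genes there 42 were tested, and 25 of the 42 were called lower and none higher (59.5%, against 7.73% of all genes). The 12 are lower by rule and count among the 25, so this share is raised by the way the stretch was drawn. The median log2 fold change of the 42 was -1.51 against -0.29. After rescaling 23 were lower, and without the pair of libraries that stood apart 27. In the clr-2 deletion strain on Avicel 1 of the 42 genes was lower and 6 were higher, against 2.21% and 4.23% of all genes. Over all genes, the higher calls of that comparison fell from 350 to 67 after rescaling. NCU05663 (III:402181-403426) was at 0.33, 0.492 and 0.468 FPKM in Pccg1-clr-2 against 33.02, 30.1 and 41.9 FPKM in starved wild type, 14.6, 26.9 and 22.6 on Avicel and 42.9, 38.8 and 46.02 in the clr-2 deletion strain. NCU05688 (III:513502-515338) was at 0.395, 0.611 and 0.607 against 15.9, 15.4 and 16.3 FPKM. NCU09187 was listed at 0 in all 3 Pccg1-clr-2 libraries and was at 4.72, 17.02 and 9.21 FPKM in wild type. NCU09175 and NCU09160 were abundant in wild type, at 726, 645 and 540.1 and 436, 494 and 403 FPKM, and stood at 132, 101 and 80.9 and 77.1, 97.3 and 102 FPKM. Lowered genes lay among others that were not called, such as NCU09165 at -0.18 ± 0.23. Among 372 windows of 100 kb with 10 or more tested genes, 5 had more than 33.3% lower calls, and 2 of these touch the stretch. The windows between these 2 held fewer than 10 tested genes and are not among the 372. The cause was not tested.

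**Figure D5:**
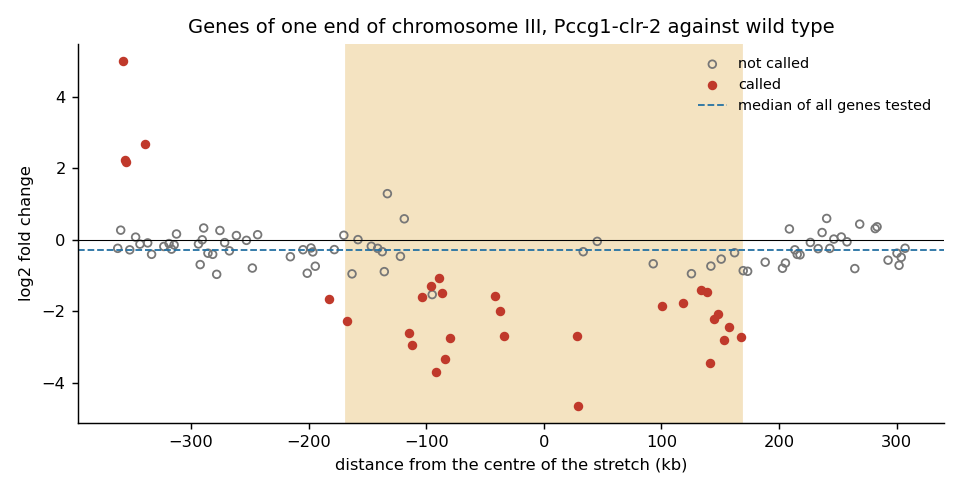
Log2 fold change of Pccg1-clr-2 against wild type without carbon for tested genes at one end of chromosome III by distance in kb from the centre of the shaded stretch; filled points were called. Within the shading 25 of 42 genes were called lower, among them the 12 from which the stretch was drawn, beside genes at the median of all genes.

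The surroundings of clr-2 were examined because the native gene is deleted in this strain. Of the other genes within 20 kb, chol-1 and NCU08043 were called lower. Among all genes 7.73% were, and whether this neighbourhood departs from that share was not tested. The gene chol-1 (NCU08045, IV:4012832-4016679), whose mutants need choline, was at 3.94, 4.63 and 3.50 FPKM against 20.3, 27.6 and 32.3 FPKM (log2 fold change -2.45 ± 0.26, adjusted p = 6.86e-06). The clr-2 deletion strain on Avicel held 21.3, 31.3 and 32.03 FPKM of chol-1, close to wild type on Avicel at 14.95, 25.5 and 28.8 FPKM. NCU08043 was at 0.652, 0.264 and 0.502 against 5.86, 1.85 and 2.38 FPKM (log2 fold change -1.47 ± 0.40, adjusted p = 0.0116), a call lost in 1 alternative fit. NCU08044, between them, was at 181, 40.7 and 44.3 against 78.2, 167 and 58.4 FPKM and was not called. The histidine gene his-3, a common target for insertion of transgenes in Neurospora, was at 35.7, 34.9 and 35.99 FPKM against 56.7, 51.2 and 63.4 FPKM, with no overlap and a change under the fold required (log2 fold change -0.66 ± 0.11, adjusted p = 4.50e-04).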

How the data were processed

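Per the labels' protocols, total RNA was made with Trizol and an RNeasy kit and sequenced by standard Illumina protocols. The FPKM values were made by the authors and deposited per library for 9758 genes, with bounds and a status for each. HISAT2 2.0.5 and Cufflinks 2.2.1 are listed, with no role, per the submitters' processing notes. For the annotation and for strand the entry is: not given in the sources used here. Overlapping or antisense genes are therefore uncertain. Loci are on build NC12, and 9757 genes were found in the RefSeq table of that build, 1118 with a symbol. No counts were used, and the depth quoted is the one that Poisson counting implies for the deposited bounds.

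The 18 libraries of 4 h were analysed, and those of 10 h were not analysed here. There were 9 genes with a status other than OK in a library of 4 h, and these were left out. The filter kept genes whose mean over all 18 libraries reached 1 FPKM. The fit used limma 3.58.1 (R 4.3.3; lmFit, then contrasts.fit and eBayes with trend) on log2(FPKM + 1), in 1 model with a term for each of the 6 groups, and clr-2 was left out of the tests. The script was tested on simulated data. Python 3.11.15, pandas 2.3.3 and matplotlib 3.10.9 made the summaries and figures. There were 3 comparisons.

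The members, the gene lists and the tests were chosen with earlier results of these data known. List places of genes with no reference symbol (21 of 56 enzyme genes) and the names clr-3, hac-1 and ire-1 come from background knowledge. Named genes are clr-1, clr-2, clr-3 and ccg-1, the 15 largest called changes in each direction with no overlap, up to 6 members of each list with the largest change or with a role that helps to read it, genes near 0 in 1 group, the neighbours of clr-2 and 10 genes of the overlap with the deletion. Alternatives were a pseudocount of 0.1, no filter, median-ratio rescaling, only the groups compared, array weights, a replicate block and leaving out libraries. Replicate numbers come from the titles, and same-numbered libraries did not all deviate together between the starved strains or between the deletion strain and wild type on Avicel. Those of Pccg1-clr-2 and wild type on Avicel correlated at 0.27, 0.17 and 0.24. However, Pccg1-clr-2 replicate 2 also correlated with Avicel replicate 3, at 0.26, and replicate 3 with Avicel replicate 2, at 0.12. These values do not settle whether the numbers pair the libraries, and the main fit held no replicate term.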

Additional observations from a re-analysis of the deposited data

How the results depend on the processing

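The count of 867 calls between the starved strains lay between 619 (rescaling) and 1061 (pseudocount 0.1) over the other scalings, filters, pseudocount and weights, between 696 and 951 without any 1 library, and was 842 without the genes of the chromosome III stretch, a setting chosen after seeing the data. The higher calls ran from 201 to 274 and the lower ones from 495 to 677 without any 1 library; lower calls fell to 286 after rescaling. Of the 136 called genes that are named, listed or in the chromosome III stretch, 123 were called in all of the 13 fits that could test them and none changed sign. Calls of NCU05853 and NCU05627 were lost in 6 of them, that of ccg-8 in 4, and those of NCU01966, NCU02344 and crp-4 in 3. The 41 enzyme genes called higher became 42 after rescaling and 39 without the pair of libraries that stood apart. Shared genes with the clr-2 deletion numbered 86 to 123, and 93 to 105 without any 1 library. The 78 genes of the reverse overlap became 16 after rescaling, 27 in fits on only the groups compared, 125 with array weights and 51 to 98 without any 1 library, settings applied to this overlap after seeing the data.

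In the comparison with Avicel, a fit on only the groups compared gave 406 calls in place of 814 (171 higher and 235 lower); calls without any 1 library ran from 632 to 970, higher ones from 259 to 524 and lower ones from 319 to 450. For the clr-2 deletion on Avicel, rescaling gave 343 calls in place of 533 (67 higher and 276 lower) and the fit on only those groups 265 (128 higher). Without any 1 library its calls ran from 384 to 932, the higher ones from 202 to 720 and the lower ones from 159 to 212; without wild type Avicel replicate 2 there were 932 calls (720 higher) and without replicate 3 there were 811 (625 higher). Without wild type Avicel replicate 1 the higher calls were 202, and without replicate 2 or 3 of the deletion strain 233 or 226. The causes of these shifts were not tested.

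Same-numbered libraries of the starved strains had deviations that correlated at -0.04, -0.22 and 0.37, so the replicate numbers were not taken as pairing; those of the deletion and wild type on Avicel correlated at -0.18, -0.18 and 0.04. With a replicate block 869 genes were called (231 higher and 638 lower), 838 against Avicel and 561 for the deletion. Against Avicel, where pairing by number was not settled, the values given are from the fit without a block. There the block, a single replicate effect for all 6 groups, changed 1 call among 294 named or listed genes (NCU01633, then called lower). Levels near 0 are limited by depth, which spans 5.18 to 41.2 M fragments; a listed 0 shows no more than that no fragment was assigned.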
